A study of Mus musculus with 6 samples.

Results

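The subunits of the BAF chromatin remodelling complex that are exchanged when neural progenitors become neurons were examined in sorted cells of the embryonic mouse cortex. The set held 10 of the 54146 genes counted and was defined by the known roles of the subunits: the progenitor subunits Actl6a, Phf10 and Ss18, the neuronal subunits Actl6b, Dpf1, Dpf3 and Ss18l1, and the members Dpf2, Smarca4 and Smarca2. All 10 symbols matched a single Ensembl gene and all 10 passed the filter on low counts. The Mir group (3 libraries) had received a plasmid encoding a miR-3607 hairpin under the U6 promoter, and the Scr group (3 libraries) the same vector with a scrambled hairpin. Every library also carried a GFP plasmid under the CAG promoter. Both plasmids were introduced by in utero electroporation into the cortex of wild-type embryos at E14.5, and cells positive for GFP were sorted 24 hours later, at E15.5. Each library pooled the cells of 2 embryos. GFP marks cells that took up DNA and their daughters, so that a sorted pool mixes progenitors with newly born neurons. The strain is ICR by the protocol but C57BL/6 by the sample characteristics. The comparison asks how an excess of miR-3607 alters gene expression in these cells, here in the subunits whose exchange accompanies the exit from the cell cycle.

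BAF complexes use the energy of ATP to slide or evict nucleosomes, and they are built around a single ATPase, Smarca4 (BRG1) or Smarca2 (BRM). In dividing neural progenitors the complex holds the actin-like protein Actl6a, the PHD-finger protein Phf10 or Dpf2, and Ss18. In postmitotic neurons these positions are taken by the paralogues Actl6b, Dpf1 or Dpf3, and Ss18l1 (CREST), and the neuronal form is needed for dendrite growth. In this textbook account the repressor REST holds down miR-9 and miR-124 in progenitors, and these microRNAs act on the 3′ UTR of Actl6a once REST declines.

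Sequences that bear on this exchange and on the introduced hairpin are shown first. The strand of the hairpin that carries miR-3607 was read from the oligonucleotide in the labels, and mouse miR-9-3p (the miR-9 strand known to act on Actl6a) from RefSeq (GRCm38.p6). Capitals mark the seed, bases 2 to 8, written 5′ to 3′.
miR-3607: gCATGTGAtgaagcaaatcagt
miR-9-3p: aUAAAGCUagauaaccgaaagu

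For each gene a single 3′ UTR was searched for seed matches, that of its longest coding transcript (GENCODE M21), as the complement of bases 2 to 8 or the complement of bases 2 to 7 followed by A. For miR-3607, 2 of the 10 members held a match (Ss18l1 and Smarca4), against 17.3% of the 12739 tested genes with a 3′ UTR. For miR-9-3p, 4 of the 10 members held a match, against 18.1% of those genes, and they included Actl6a, which held 2 matches within its 3′ UTR of 371 bases, beside Ss18, Ss18l1 and Smarca2. For the other strand of that hairpin, miR-9-5p, 0 of the 10 members held a match, against 20.8% of those genes. Matches to miR-124 were not searched, since no mature miR-124 sequence was used. The sites below show the match in capitals with its flanks on the strand of the gene (GRCm38). They are descriptions of sequence only.
Ss18l1, miR-3607, chr2:180067645-180067670, plus strand: accgtgtcaTCACATGttctgtgcct
Smarca4, miR-3607, chr9:21704077-21704102, plus strand: gaactggagTCACATGAggctgtgag
Actl6a, miR-9-3p, chr3:32726631-32726656, plus strand: aacgtctgtAGCTTTAgtacactcag
Actl6a, miR-9-3p, chr3:32726719-32726744, plus strand: attttttaagGCTTTAActggctcta

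The promoters of Actl6a and Actl6b, the paralogues at the centre of the exchange, are shown from 250 bases before to 50 bases after the annotated start (RefSeq, GRCm38.p6). Promoter sequence was found for 9 of the 10 members. Capitals mark matches, on either strand, to the letters CAGCACC and GGACAG, the arms of the element that REST binds. Only the Actl6b promoter, of these 9, held both, each on the opposite strand with 9 bases between them. They lay from 22 and 37 bases after the start. The spacing of the arms was left free in this search. The arms at a closer, fixed spacing were also searched. Of 32851 promoters 12 (0.0365%) held that form, and the Actl6b promoter, with its gap of 9 bases, did not. Whether REST binds there was not tested. Among 32851 promoters of this length 1.73% held both arms, 7.14% held CAGCACC and 22.2% held GGACAG. The Actl6a promoter held neither. This window follows the RefSeq start and lies inside the GENCODE span of the gene, which begins at 32706298. The sequence around that earlier start was not searched. CpG dinucleotides numbered 21 in the Actl6a and 23 in the Actl6b window, against a median of 7 over all promoters. No match says only that these letters are absent from the window.
Actl6a, chr3:32708296-32708595, plus strand: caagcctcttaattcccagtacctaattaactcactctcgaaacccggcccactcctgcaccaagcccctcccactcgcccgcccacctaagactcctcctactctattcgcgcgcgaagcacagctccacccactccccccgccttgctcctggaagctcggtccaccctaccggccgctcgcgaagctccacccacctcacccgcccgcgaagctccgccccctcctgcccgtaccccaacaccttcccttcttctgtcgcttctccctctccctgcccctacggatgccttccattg
Actl6b, chr5:137553296-137553595, plus strand: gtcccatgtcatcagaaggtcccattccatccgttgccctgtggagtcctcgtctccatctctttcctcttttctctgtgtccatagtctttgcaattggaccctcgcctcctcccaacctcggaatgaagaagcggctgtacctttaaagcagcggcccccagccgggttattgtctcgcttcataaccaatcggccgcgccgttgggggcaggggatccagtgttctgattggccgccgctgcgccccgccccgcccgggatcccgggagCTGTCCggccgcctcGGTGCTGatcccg

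Values by library follow in the order of replicates 1, 2 and 3 of each group, and levels are in CPM (counts scaled to the size of the library). The libraries held 12724511 to 16684038 counts in genes. Within the Scr group replicate 2 stood apart, with the highest level of all 4 neuronal subunits among the 6 libraries, and within the Mir group replicate 3 had the highest level of all 4. Across the whole table edgeR's quasi-likelihood test called 1 of 16897 genes, in the lower direction (Benjamini-Hochberg adjusted p, threshold 0.05). Replicates are separate pools of animals.

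None of the 10 subunits passed that test, in either direction, against 0.00592% of all genes. With an unadjusted edgeR p under 0.05, Dpf2 alone was higher, 1 member (6.57% of all genes), and 2 were lower, Smarca2 and Actl6b (7.93% of all genes). DESeq2, run as an alternative, called Dpf2 higher and Smarca2 lower (1.45% and 2.21% of the genes it adjusted, 3.67% in all), and limma-voom called 0. The 3 Mir libraries lay wholly above the 3 Scr libraries for Actl6a and Dpf2 (9.72% of all genes) and wholly below them for Smarca2 (10.3% of all genes). All 4 neuronal subunits had a fitted log2 fold change below 0, as had 51.2% of all genes, and 2 of 3 progenitor subunits had one above 0, as had 48.8%. The median log2 fold change was -0.69 over the neuronal and 0.15 over the progenitor subunits, beside -0.01 over all genes tested. Leaving out Scr replicate 2 alone moved these medians to -0.30 and 0.03, and leaving out Mir replicate 3 alone moved the neuronal one to -1.05. Without Scr replicate 2 and Mir replicate 3 together (libraries chosen once the values were seen), edgeR called 0 members (0.0588% of genes higher and 0.112% lower). In those 4 libraries 6 members lay wholly lower in Mir (24.9% of all genes), the 4 neuronal subunits, Smarca2 and the progenitor subunit Phf10, and Actl6a and Dpf2 lay wholly higher (25.2% of all genes).

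**Figure D1:**
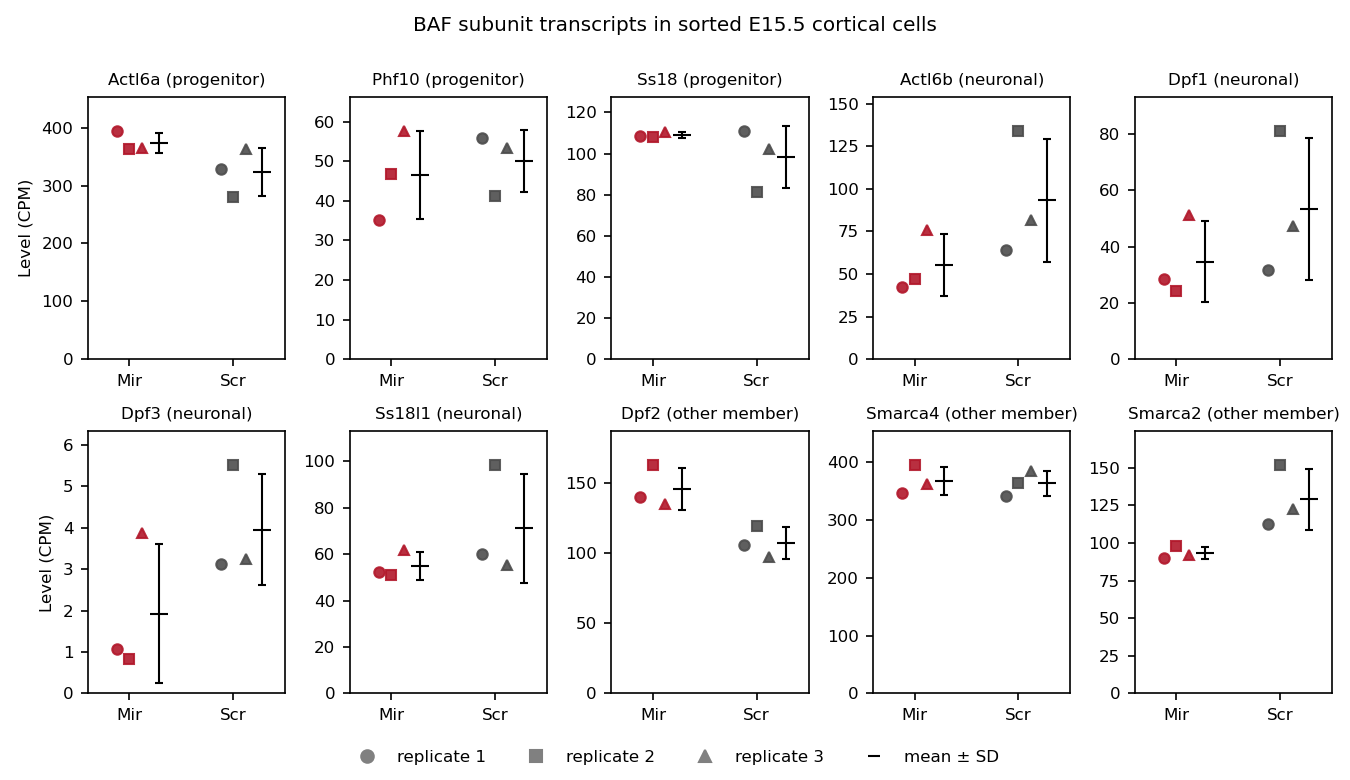
Level of each subunit (CPM, linear axis from 0) in each Mir and Scr library; symbols mark the replicate, and the black bar gives mean ± SD of 3 libraries. The Mir points lie above the Scr points for Actl6a and Dpf2 and below them for Smarca2, and Scr replicate 2 is the highest library for Actl6b, Dpf1, Dpf3 and Ss18l1.

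Levels of different genes were compared per kb of exon. In Mir libraries the order was Actl6a at 96.2 ± 4.48 CPM per kb (SD, n = 3), Smarca4 at 56.8 ± 3.76, Dpf2 at 22.4 ± 2.26, Actl6b at 12.9 ± 4.30, Ss18l1 at 12.67 ± 1.41, Ss18 at 11.6 ± 0.137, Phf10 at 9.46 ± 2.28, Smarca2 at 6.54 ± 0.278, Dpf1 at 6.46 ± 2.69 and Dpf3 at 0.456 ± 0.399 CPM per kb. In Scr libraries Actl6a led at 83.4 ± 10.7 CPM per kb (SD, n = 3) and Smarca4 followed at 56.1 ± 3.39, and Dpf3 was again lowest at 0.937 ± 0.317. Actl6a, Smarca4 and Dpf3 did not overlap their neighbours in the order in either group. In Scr libraries the ranges of Actl6b, Dpf2 and Ss18l1 overlapped from neighbour to neighbour, and so did those of Ss18, Phf10, Dpf1 and Smarca2, so their order is not resolved. In Mir libraries Actl6b, Ss18l1, Ss18 and Phf10 likewise overlapped from neighbour to neighbour, as did Smarca2 and Dpf1. Of the ATPase transcripts Smarca4 was the more abundant, with a level per kb above that of Smarca2 in every library. Annotated exon length includes every isoform, so a gene with rarely used exons reads low on this scale.

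**Figure D2:**
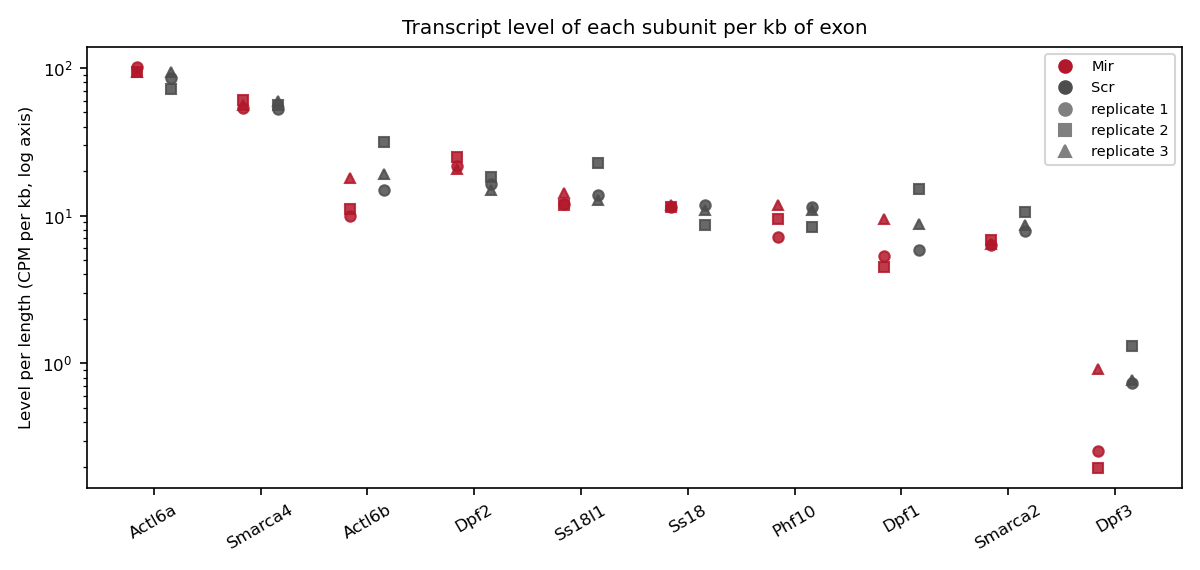
Level of each subunit per kb of exon (CPM per kb, log axis), by library, in the order of the Scr means. Mir points stand to the left of Scr points for each gene; Actl6a and Smarca4 are highest, and Dpf3 lies at 0.197 to 1.302 CPM per kb in all 6 libraries.

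Among the progenitor subunits, Actl6a was slightly higher in Mir than in Scr and the others overlapped. Actl6a (ENSMUSG00000027671, chromosome 3, 32706298 to 32726973, plus strand, GRCm38) encodes the actin-like subunit that progenitors need for division. Its level was 394, 363 and 364 CPM in Mir, against 329, 280.5 and 363 CPM in Scr. The groups did not overlap, but Scr replicate 3 lay just under the lowest Mir library. The log2 fold change was 0.20 ± 0.11 (SE; edgeR adjusted p = 0.423), a mean of 374 ± 17.4 CPM in Mir and 324 ± 41.5 CPM in Scr (SD, n = 3 each), and it was 0.11 without Scr replicate 2.

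Phf10 (ENSMUSG00000023883, chromosome 17, 14945009 to 14961273, minus strand), a PHD-finger subunit of the PBAF form in dividing cells, was at 35.1, 46.8 and 57.5 CPM in Mir and at 55.8, 41.1 and 53.2 CPM in Scr. Mir replicate 1 was the lowest and Mir replicate 3 the highest of the 6 libraries, so the groups overlapped entirely. The log2 fold change was -0.11 ± 0.20 (edgeR adjusted p = 0.840), and it ranged from -0.31 without Mir replicate 3 to 0.06 without Mir replicate 1. Ss18 (ENSMUSG00000037013, chromosome 18, 14624198 to 14682914, minus strand), a subunit that helps tether the complex, was at 108, 108 and 110.5 CPM in Mir and at 111, 81.5 and 102 CPM in Scr. Here Scr replicate 1 was the highest library and Scr replicate 2 the lowest, and the log2 fold change was 0.15 ± 0.12 (edgeR adjusted p = 0.594). It was 0.03 with Scr replicate 2 left out and 0.24 with Scr replicate 1 left out.

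Parts of the progenitor subunit transcripts also occur in other genes. Where genes overlap on opposite strands, the amplification kit does not mark strand, and the strand setting of the counting is not given. Whether counts of such genes mix is therefore not known. Of the 50-base words in Actl6a transcripts, 10.1% also occur in other genes, nearly all in Mrpl47, whose end overlaps that of Actl6a on the opposite strand. Mrpl47, a mitochondrial ribosomal protein gene, had a log2 fold change of 0.02 ± 0.10 (edgeR adjusted p = 0.932). Phf10 shares 5.85% of its words with the opposite-strand gene 1600012H06Rik, whose log2 fold change was 0.18 ± 0.13 (edgeR adjusted p = 0.545). For Ss18 the share was 4.82%, with the processed pseudogene Gm1826, which lies on chromosome 2 and does not overlap Ss18. Reads without a unique alignment were summarised apart from the gene counts (39.3 to 44.5% of listed reads). Reads that match Ss18 and Gm1826 alike would thus be missing from Ss18 rather than added to it. The log2 fold change of Gm1826 was 0.21 ± 0.27 (edgeR adjusted p = 0.752). No member shared a 50-base word with another member, so paralogues could be told apart.

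The neuronal subunits had lower means in Mir throughout, with wide spread within both groups. Actl6b (ENSMUSG00000029712, chromosome 5, 137553517 to 137569582, plus strand), the neuronal replacement of Actl6a, was at 42.1, 47.3 and 76.1 CPM in Mir, against 63.9, 134 and 81.9 CPM in Scr. Mir replicates 1 and 2 were below every Scr library, whereas Mir replicate 3 lay between Scr replicates 1 and 3. Its log2 fold change was -0.76 ± 0.31 (edgeR adjusted p = 0.327), with means of 55.2 ± 18.3 CPM in Mir and 93.2 ± 36.3 CPM in Scr (SD, n = 3 each). DESeq2 called Actl6b when Scr replicate 1 (adjusted p = 0.0385) or Mir replicate 3 (0.00865) was left out, but not with all libraries (0.116). Those refits called 444 of 14157 and 805 of 18452 adjusted genes lower, in that order. Without Scr replicate 2 the log2 fold change was -0.41, and without Scr replicate 2 and Mir replicate 3 together it was -0.71 (edgeR adjusted p = 0.0887).

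Dpf1 and Dpf3 encode the PHD-finger proteins that take the place of Phf10 in neurons. Dpf1 (ENSMUSG00000030584, chromosome 7, 29303951 to 29318243, plus strand) was at 28.7, 24.2 and 51.2 CPM in Mir and at 31.6, 81.0 and 47.4 CPM in Scr. The groups overlapped through Mir replicate 3, and the log2 fold change was -0.62 ± 0.39 (edgeR adjusted p = 0.497). It was -0.19 without Scr replicate 2, -0.40 without Mir replicate 2 and -1.03 without Mir replicate 3. Of the 50-base words of Dpf1, 0.852% also occur in other genes, in the antisense gene Gm44632, which lies on the opposite strand. Gm44632 had a log2 fold change of -1.12 ± 0.48 (edgeR adjusted p = 0.347). It was rare, at 0.703 CPM in Mir replicate 2 to 4.27 CPM in Scr replicate 2, its highest library as for Dpf1. Its part in the counts of Dpf1 was not tested.

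Dpf3 (ENSMUSG00000021221, chromosome 12, 83213745 to 83487716, minus strand) was the rarest member, with counts of 17, 13 and 57 in Mir and of 40, 76 and 54 in Scr. Counting error alone is large at this depth. Its level was 1.08, 0.830 and 3.87 CPM in Mir and 3.12, 5.50 and 3.25 CPM in Scr, so that Mir replicate 3 exceeded Scr replicates 1 and 3 and the other Mir libraries were lowest. The log2 fold change was -1.04 ± 0.59 (edgeR adjusted p = 0.463). Without Mir replicate 3 it was -2.05, where DESeq2 called the gene (adjusted p = 0.00897, against 0.418 with all libraries). That DESeq2 refit called 805 of 18452 adjusted genes lower. Without Mir replicate 2 the log2 fold change of Dpf3 was -0.66, and -0.73 with Scr replicate 2 left out.

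Ss18l1 (ENSMUSG00000039086, chromosome 2, 180042509 to 180070201, plus strand) encodes CREST, a calcium-responsive coactivator of dendrite growth, and carries a miR-3607 seed match shown above. It was at 52.1, 50.8 and 62.0 CPM in Mir, against 60.0, 98.2 and 55.4 CPM in Scr. Mir replicate 3 lay above Scr replicates 1 and 3, and Scr replicate 2 alone was far above the rest. The log2 fold change was -0.37 ± 0.22 (edgeR adjusted p = 0.476), and -0.07 without Scr replicate 2.

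**Figure D3:**
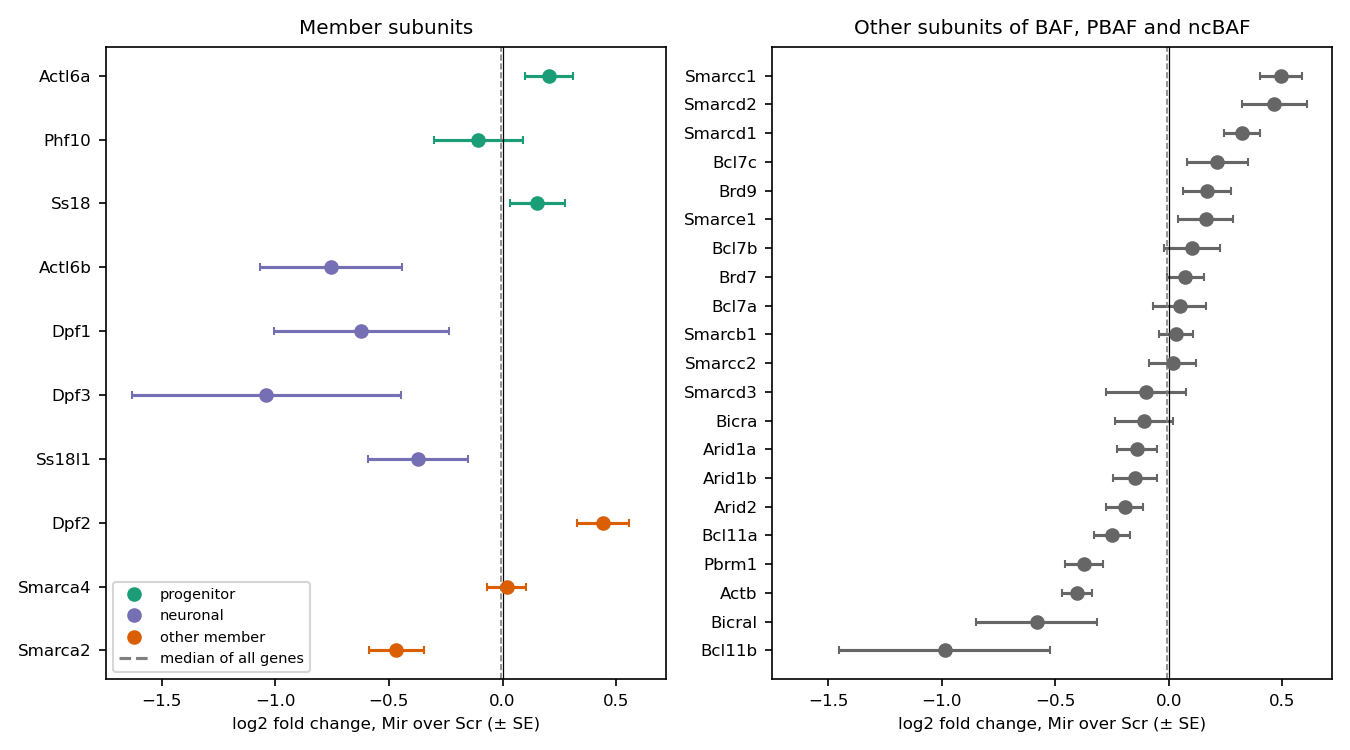
Fitted log2 fold change of Mir over Scr with its standard error for the 10 members (left) and for 21 other subunits of the BAF, PBAF and ncBAF complexes (right); the dashed line is the median of all genes tested. Neuronal subunits lie at -0.37 to -1.04 with the widest bars among the members, and no gene shown passed the edgeR threshold.

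Ratios of paralogues within a library take out library size and were computed as log2 of (CPM + 0.5). They are given without a test, and since CPM are not adjusted for length they are compared between libraries only. Actl6b over Actl6a was -3.21, -2.93 and -2.25 in Mir, against -2.36, -1.07 and -2.14 in Scr. Mir replicates 1 and 2 were lowest, and Mir replicate 3 lay between Scr replicates 1 and 3. Dpf1 over Phf10 overlapped widely, at -0.29, -0.94 and -0.17 in Mir and -0.81, 0.97 and -0.16 in Scr. Ss18l1 over Ss18 was -1.05, -1.08 and -0.83 in Mir and -0.88, 0.27 and -0.87 in Scr, with Scr replicate 2 far above the other 5 libraries. Dpf3 over Phf10 was -4.49, -5.15 and -3.73 in Mir and -3.96, -2.79 and -3.84 in Scr. The difference of the means of this last ratio was -0.93, and -0.54 with a pseudocount of 2 CPM.

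A switch index summarised these, as the mean log2 level of the 4 neuronal subunits minus that of the 3 progenitor subunits. It was -2.68, -2.87 and -2.04 in Mir, and -2.30, -0.97 and -2.06 in Scr. Mir replicate 3 was therefore above Scr replicates 1 and 3, and Scr replicate 2 was set apart from the other 5 libraries. The group means were -2.53 ± 0.43 in Mir and -1.78 ± 0.71 in Scr (SD, n = 3 each), a difference of -0.76. Without Scr replicate 2 the difference was -0.35, and without Scr replicate 2 and Mir replicate 3 together it was -0.60.

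**Figure D4:**
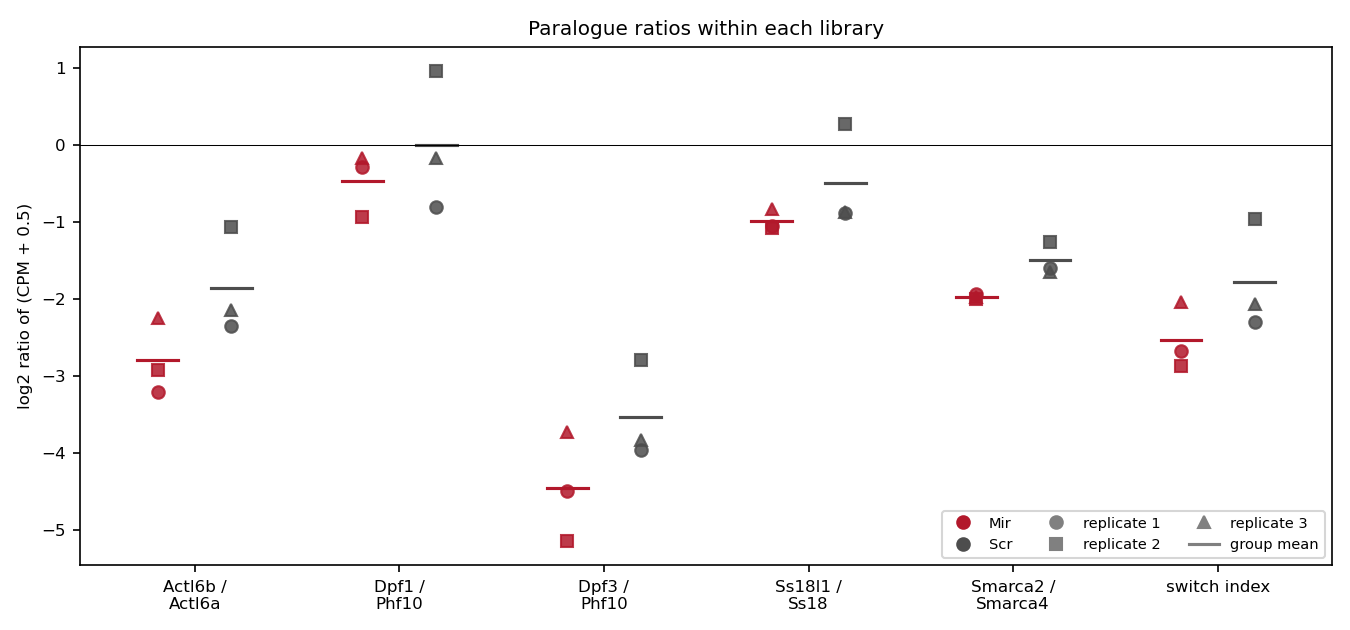
Log2 ratio of (CPM + 0.5) of each neuronal or alternative subunit over its partner, and the switch index, in each library; symbols mark the replicate and lines the group means. Only for Smarca2 over Smarca4 do the Mir points (replicate 1 highest, at -1.93) lie wholly below the Scr points (replicate 3 lowest, at -1.65).

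Of the ATPases, Smarca4 had close means in the groups and Smarca2 had a lower mean in Mir. Smarca4 (ENSMUSG00000032187, chromosome 9, 21616169 to 21704230, plus strand), the ATPase on which progenitor renewal depends, was at 346, 394 and 362.5 CPM in Mir, against 341, 363 and 385 CPM in Scr. The groups overlapped and the log2 fold change was 0.02 ± 0.09 (edgeR adjusted p = 0.946), in a gene with an 8-base match to miR-3607 in its 3′ UTR. Smarca2 (ENSMUSG00000024921, chromosome 19, 26605050 to 26778322, plus strand), the alternative ATPase that gains weight in differentiated cells, was at 90.3, 97.8 and 91.7 CPM in Mir and 113, 152 and 123 CPM in Scr. Every Mir library was below every Scr library.

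The log2 fold change of Smarca2 was -0.47 ± 0.12, with means of 93.3 ± 3.97 CPM in Mir and 129 ± 20.1 CPM in Scr (SD, n = 3 each). Its edgeR adjusted p was 0.214 and its DESeq2 adjusted p 0.0377. Leaving out any library but Scr replicate 1 ended the DESeq2 call, with adjusted p-values of 0.0668 (without Scr replicate 2) to 0.210 (without Mir replicate 1). Without Scr replicate 1 DESeq2 called 444 of 14157 adjusted genes lower. The ratio of Smarca2 to Smarca4 was 0.261, 0.248 and 0.253 in Mir and 0.331, 0.417 and 0.319 in Scr, on CPM that were not adjusted for length.

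Dpf2 (ENSMUSG00000024826, chromosome 19, 5896516 to 5913010, minus strand) encodes the widely expressed PHD-finger subunit that occupies the same position as Dpf1 and Dpf3. It was at 140.0, 163 and 135 CPM in Mir, against 106, 119 and 97.2 CPM in Scr, with every Mir library above every Scr library. The log2 fold change was 0.44 ± 0.11, with means of 146 ± 14.7 CPM in Mir and 107 ± 11.1 CPM in Scr (SD, n = 3 each). Its edgeR adjusted p was 0.214 and its DESeq2 adjusted p 0.0336. The DESeq2 call held without Scr replicate 2 (adjusted p = 0.00405) or Mir replicate 3 (0.0209). Those refits called 275 of 10766 and 284 of 18452 adjusted genes higher, in that order. Without each of the others the call of Dpf2 was lost, at DESeq2 adjusted p-values of 0.0724 (without Scr replicate 1) to 0.267 (without Mir replicate 2).

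The libraries with the highest neuronal subunits were also the highest of their groups for markers of inhibitory neurons, endothelial cells and red blood cells. The summed level of 7 inhibitory neuron markers was 189, 177 and 403 CPM in Mir, against 311, 1095 and 417 CPM in Scr. All 7 had lower means in Mir, and none was at 0 in any library. Mir replicate 3 and Scr replicate 2 were the highest of their groups for this list, as for Actl6b, Dpf1, Dpf3 and Ss18l1. These cells are born outside the cortex, and their part in the levels of the neuronal subunits was not tested.

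Cortical neuron markers (9 genes) summed to 4969, 4447 and 4758 CPM in Mir and to 5289, 6348 and 5496 CPM in Scr. Every Mir sum lay below every Scr sum, and 7 of 9 means were lower, with those of Neurod2 and Tbr1 higher. Gene by gene, 8 of the 9 overlapped between the groups and only Snap25 lay wholly below (10.3% of all genes). Neurod6 alone contributed 1883 to 2378 CPM to the sums. Radial glia markers (8 genes, all with higher means in Mir) summed to 1556, 1917 and 2311 CPM in Mir and 1587, 1222 and 1821 CPM in Scr. Intermediate progenitor markers (5 genes, all with higher means in Mir) summed to 2673, 3089 and 2108 CPM in Mir and 2117, 1365 and 1900 CPM in Scr. In bulk libraries fewer neurons and less RNA of a gene per neuron cannot be told apart. Endothelial markers (6 genes) summed to 0.636, 0.639 and 27.4 CPM in Mir, where Pecam1, Cldn5 and Cdh5 were at 0 in replicates 1 and 2, and to 63.6, 173 and 9.21 CPM in Scr. Microglia markers (7 genes) summed to 10.1, 12.5 and 49.2 CPM in Mir and 18.8, 48.9 and 67.5 CPM in Scr, with C1qb, C1qc, Cx3cr1, Aif1 and P2ry12 at 0 in at least 1 library. Red blood cell genes (5 haemoglobins, 4 of them tested) summed to 50.7, 0.703 and 563 CPM in Mir and 240.0, 839 and 555 CPM in Scr, with Hba-a1, Hba-a2 and Hbb-y at 0 in at least 1 library. The part of these cells in the results was not tested.

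**Figure D5:**
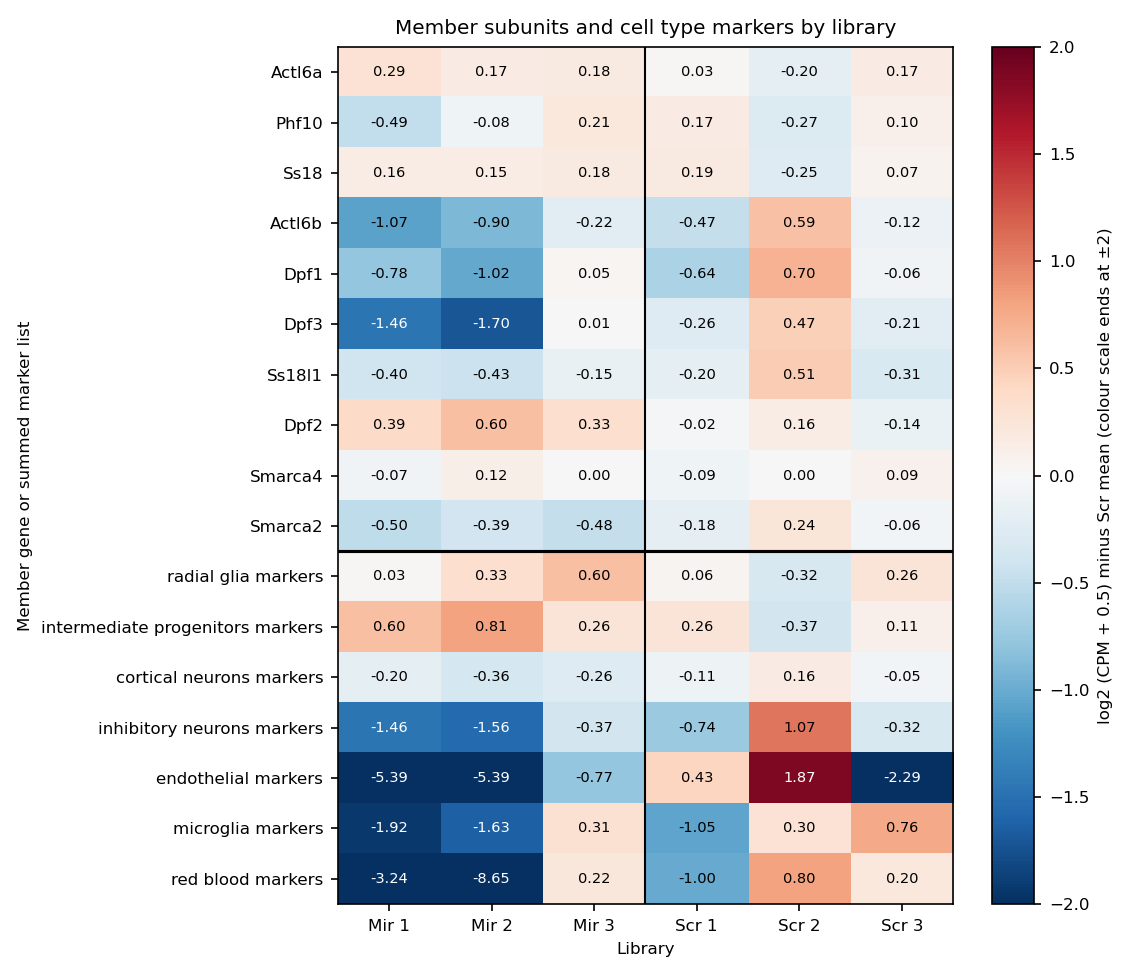
Difference of log2 (CPM + 0.5) from the Scr average, for each member (top) and for the summed markers of each cell type (bottom), by library; colours end at -2 and 2 and the numbers give the values. Scr replicate 2 is high for the neuronal subunits (0.47 to 0.70) for inhibitory neuron markers (1.07) and for endothelial markers (1.87), and Mir replicates 1 and 2 are low for all of these.

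The other 21 subunits of the BAF, PBAF and ncBAF complexes were divided between higher and lower means, 11 and 10, with a median log2 fold change of 0.02. By edgeR 0 passed over all genes, limma-voom called 0 genes in all, and 3 were higher and 4 lower at an unadjusted edgeR p under 0.05 (6.57% and 7.93% of all genes). DESeq2 called 2 higher and 2 lower (1.45% and 2.21% of the genes it adjusted). In 3 of the 21 the Mir libraries lay wholly above the Scr libraries and in 4 wholly below, 7 of 21 against 20.0% of all genes. Smarcc1, a core scaffold subunit, was at 440, 418 and 394 CPM in Mir, against 295, 323 and 271 CPM in Scr. Its log2 fold change was 0.50 ± 0.09 (edgeR adjusted p = 0.171, DESeq2 adjusted p = 0.00152). The paralogue Smarcc2, also a scaffold subunit, was at 332, 334.5 and 303 CPM in Mir and 336.5, 344 and 277 CPM in Scr. The log2 fold change of Smarcc2 was 0.02 ± 0.10 (edgeR adjusted p = 0.957). The groups thus did not overlap for Smarcc1 and overlapped for Smarcc2; the difference between the paralogues was not tested.

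The Smarcd subunits, which link the complex to transcription factors, had log2 fold changes of 0.32 ± 0.08 for Smarcd1, 0.47 ± 0.14 for Smarcd2 and -0.10 ± 0.18 for Smarcd3 (edgeR adjusted p = 0.212, 0.244 and 0.835). For Smarcd1 and Smarcd2 every Mir library lay above every Scr library, and for Smarcd3 they overlapped. Of the 4 genes wholly lower in Mir, 3 were Actb (β-actin, a subunit of the complex and of the cytoskeleton; -0.40 ± 0.07), Pbrm1 (the defining bromodomain subunit of PBAF; -0.37 ± 0.08) and Bcl11a (a zinc-finger subunit and cortical neuron factor; -0.25 ± 0.08), with edgeR adjusted p-values of 0.167, 0.206 and 0.259. The fourth was Arid2, the DNA-binding subunit of PBAF (-0.19 ± 0.08, edgeR adjusted p = 0.332). DESeq2 called Actb (0.00654), Pbrm1 (0.0226) and Smarcd1 (0.0404), beside Smarcc1. Bcl11b, the zinc-finger paralogue of deep-layer and inhibitory neurons, was at 143, 141 and 346.5 CPM in Mir and 261, 682 and 307 CPM in Scr, with the same high libraries as Actl6b. Its log2 fold change was -0.99 ± 0.46 (edgeR adjusted p = 0.380), -0.44 without Scr replicate 2 and -1.56 without Mir replicate 3. With these libraries left out together, a choice made after seeing the data, it was -1 (edgeR adjusted p = 0.0407). In that fit 0.112% of genes were called lower. The alternative DNA-binding subunits Arid1a and Arid1b were at -0.14 ± 0.09 and -0.15 ± 0.10 (edgeR adjusted p = 0.510 and 0.523), and Arid1b was at -0.065 with Scr replicate 2 left out.

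Genes around the exchange were then examined, among them Ptbp1 and Ptbp2, splicing factors placed under miR-124 rather than upstream of the exchange. Of 13 such genes 7 had higher and 6 lower means, with 0 called by edgeR or DESeq2, limma-voom calling 0 of all genes, and 2 higher and 1 lower at an unadjusted edgeR p under 0.05 (6.57% and 7.93% of all genes). The Mir libraries lay wholly above the Scr libraries for 2 of the 13 and wholly below for 3 (9.72% and 10.3% of all genes). Rest, the repressor itself, was at 11.1, 12.6 and 18.9 CPM in Mir and at 15.0, 20.4 and 17.0 CPM in Scr, a log2 fold change of -0.30 ± 0.24 (edgeR adjusted p = 0.596). The groups overlapped through Mir replicate 3, and leaving out single libraries moved the value to -0.57 (Mir replicate 3), -0.17 (Scr replicate 2) or -0.14 (Mir replicate 1). Mir124-2hg, a host transcript of miR-124, was at 107, 113 and 90.0 CPM in Mir and 132, 132 and 140 CPM in Scr, below every Scr library in each Mir library (-0.39 ± 0.10, edgeR adjusted p = 0.224). The other host transcripts listed, Mir124a-1hg for miR-124 and Mir9-3hg for miR-9, overlapped between the groups, at 0.049 ± 0.22 and 0.19 ± 0.12 (edgeR adjusted p = 0.943 and 0.518). Hdac1, a deacetylase of REST corepressor complexes, and Rcor2, a REST corepressor of neural progenitors, lay above every Scr library in each Mir library, at 0.29 ± 0.11 and 0.36 ± 0.14 (edgeR adjusted p = 0.290 and 0.307), the second being 0.23 with Scr replicate 2 left out. The REST corepressor Rcor1 and the splicing regulator Ptbp2 were wholly lower in Mir, at -0.094 ± 0.086 and -0.18 ± 0.08 (edgeR adjusted p = 0.653 and 0.351). Host transcripts say nothing of the processed microRNA, which these libraries do not measure.

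The genes closest in profile to Actl6a and Actl6b over the 6 libraries were sought among 10424 other genes of at least 10 CPM on average, by the mean absolute difference of centred log2 levels. Closest to Actl6a were Cep76, a centriolar protein gene (0.02), Gm5256 (0.03) and Usp35, a deubiquitinase gene (0.03). Closest to Actl6b were Celf5, an RNA-binding protein gene of the nervous system, Prkar2b, a regulatory subunit of protein kinase A, and Gng2, a G protein subunit, each at 0.07. Celf5 was at 14.9, 17.3 and 28.0 CPM in Mir and 22.1, 52.9 and 26.7 CPM in Scr, with Scr replicate 2 highest. Its log2 fold change was -0.76 ± 0.37 (edgeR adjusted p = 0.393). These genes were chosen for their likeness over the same 6 libraries, so such values follow from the choice and are no further evidence.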

How the data were processed

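The authors deposited whole-number read counts per Ensembl gene for each of 6 libraries (54146 genes and 5 summary lines, kept out of library sizes and tests; 21.9 to 23.6% of listed reads were assigned to genes). Per the submitters' processing notes, HISAT2 2.1.0, HTSeq 0.11.0 and DESeq2 1.18.1 were used with mm10 (GRCm38); the sources used here give neither annotation nor strand setting. Per the labels' protocols, libraries were made with SMART-seq v4 and read as 50 bp single reads.

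Counts were tested across all genes with edgeR 4.0.16 in R 4.3.3 (quasi-likelihood F test, TMM factors of 0.992 to 1.01, filterByExpr, group as the sole term), with Benjamini-Hochberg adjustment over 16897 genes and a threshold of 0.05. Standard errors come from the F statistic. CPM are scaled by TMM. DESeq2 1.42.0, limma-voom (limma 3.58.1), RLE factors, no filter, a filter at 50 counts, a replicate block, a pseudocount of 2 CPM and leaving out each library were the alternatives. The edgeR script was tested on simulated data for Mir against Scr (16897 genes): 98 of 100 genes changed 4-fold and 43 of 100 changed 2-fold were recovered. In that simulation 8 unchanged genes were called. Every simulated gene was given the same spread between replicates, which the real genes do not have. The recovery therefore does not carry over to these data. Lengths and 3′ UTRs came from GENCODE M21 and promoters from RefSeq. The members and lists were chosen with earlier results of these data known. Beyond the members, genes were named where an unadjusted p was under 0.05 (at most 5 per list), with fixed paralogue partners as values; the 3 genes nearest in profile were named for each of Actl6a and Actl6b. Arid2, Rcor1, Ptbp2, Mir124a-1hg and Mir9-3hg fall outside this rule and were named after their values were seen.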

Additional observations from a re-analysis of the deposited data

How the results depend on the processing

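The count of genes called by edgeR (1) became 535 with DESeq2, 0 with limma-voom, 31 without a filter on low counts, 0 to 2 when single libraries were left out, and 29 without Scr replicate 2 and Mir replicate 3 together, a choice made after seeing the data. DESeq2 itself called 106 genes without Mir replicate 2, 195 without Mir replicate 1 and 289 without Scr replicate 3. It called 443 without Scr replicate 2, 713 without Scr replicate 1 and 1089 without Mir replicate 3. Deviations from the group means were correlated between Mir and Scr libraries. For the same number r was 0.248, -0.147 and -0.0866 (replicates 1, 2 and 3), and for unlike numbers it was -0.326 to 0.357. The labels do not state whether equal numbers share a litter or day, and these correlations of few libraries cannot decide it. With the replicate block 0 genes were called, the median of the neuronal subunits was -0.66 and that of the progenitor subunits 0.16.

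The median of the neuronal subunits stayed below 0 in each alternative, at -0.30 (without Scr replicate 2) to -1.05 (without Mir replicate 3) when single libraries were left out, and that of the progenitor subunits above 0, at 0.03 to 0.21. When single libraries were left out the direction turned for Phf10 (-0.31 without Mir replicate 3 to 0.065 without Mir replicate 1), Smarca4 (-0.028 without Scr replicate 1 or Mir replicate 2, to 0.071), Smarcd3 (-0.23 to 0.11 without Scr replicate 2) and Smarcc2 (-0.067 without Scr replicate 3, -0.0020 without Mir replicate 2, to 0.073); the cause was not tested. Of 130 refits of members 125 kept direction and side of the threshold, and edgeR called no member in any. DESeq2 with single libraries left out also called Actl6b (without Scr replicate 1 or Mir replicate 3) and Dpf3 (without Mir replicate 3). Of the genes adjusted, 444 of 14157 were called lower without Scr replicate 1 and 805 of 18452 without Mir replicate 3. A pseudocount of 2 CPM kept the direction of all 5 paralogue ratios and the index (-0.65), and moved Dpf3 over Phf10 to -0.54. Depth limits Dpf3 most.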

Other observations

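Values by library are in the order of replicates 1, 2 and 3. The ATPases and large subunits of other remodelling families, 21 genes, were split, with 10 means higher and 11 lower in Mir, and had a median log2 fold change of -0.05. By edgeR 0 passed over all genes, with 2 higher and 3 lower at an unadjusted p under 0.05 (6.57% and 7.93% of all genes). DESeq2 called 1 higher and 2 lower (1.45% and 2.21% of the genes it adjusted), and limma-voom 0 of all genes. The CHD family of NuRD ATPases, whose members also replace one another during cortical development, had lower means in Mir for each of its 3 paralogues. Chd3 was at 115, 114 and 132 CPM in Mir, against 174, 167 and 182 CPM in Scr, with no overlap (-0.54 ± 0.09, edgeR adjusted p = 0.168, DESeq2 0.00106). Chd4 was at -0.13 ± 0.09 (edgeR adjusted p = 0.531) and the rare Chd5 at -0.99 ± 0.36 (edgeR adjusted p = 0.291). Smarca1, the ISWI ATPase of postmitotic neurons, was at 11.8, 15.3 and 21.4 CPM in Mir and 25.6, 46.9 and 32.0 CPM in Scr (-1.11 ± 0.29, edgeR adjusted p = 0.214, DESeq2 0.00865). Srcap, which loads a histone variant, was higher in each Mir library, at 15.3, 16.5 and 14.0 CPM against 10.4, 9.48 and 9.57 CPM in Scr (0.64 ± 0.16, edgeR adjusted p = 0.212, DESeq2 0.0466). Baz1b, a subunit of ISWI complexes, was at 0.20 ± 0.08 (edgeR adjusted p = 0.310). The Mir libraries lay wholly above the Scr libraries for 3 of the 21 and wholly below for 5, against 9.72% and 10.3% of all genes.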
